A study of Mus musculus with 6 samples.

Results

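The calpain genes Capn1, Capn2, Capn5, Capn6, Capn7, Capn10 and Capn15, the gene of the small regulatory subunit, Capns1, and the gene of the calpain inhibitor calpastatin, Cast, were followed in MLE-12 cells, an immortalized mouse lung epithelial line. These 9 genes were picked by name from the 34745 genes of the deposited expression table. The family was chosen by the difference of Capn6 between the groups in these same libraries, so the values of the members for this comparison are a description and carry no test. The members had at least 149 counts in every library, the lowest being Capn5 at 149 to 277, whereas the highest calpain gene outside the set, Capn9, had 18 to 38. RNA was sequenced from 3 libraries labelled NR4A1 overexpression plasmids and 3 labelled pCMV-SPORT6 vector control. The study asked how the nuclear receptor NR4A1 (gene symbol Nr4a1) changes the transcriptome of lung epithelial cells. Both groups were the same unmodified line, and the methods describe transient lipid-based transfection, the plasmid carrying the open reading frame of mouse NR4A1 behind the CMV promoter of pCMV-SPORT6. The time of harvest for sequencing is not given in the sources used here, and the labels do not say whether the 3 libraries of a group came from separate cultures, so p-values measure only the spread between these samples.

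Calpains are calcium-dependent cysteine proteases that cut their substrates at a limited number of sites, as in the remodelling of adhesions and of the cytoskeleton, rather than degrading them. The classical enzymes, μ-calpain and m-calpain, pair a large catalytic subunit encoded by Capn1 or Capn2 with the small subunit encoded by Capns1, and calpastatin inhibits both. Calpain 6 is an atypical member without the catalytic cysteine, known as a microtubule-stabilizing protein that binds the exchange factor GEF-H1, and it is known from embryonic muscle and placenta.

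The coding sequence around the catalytic cysteine is shown because it is where Capn6, the member whose level differed most between the groups, departs from the other 6 calpains. The 27 bases were read from the GENCODE M21 transcripts (GRCm38), 5′ to 3′ on the coding strand, and capitals mark the codon that aligns with the catalytic cysteine of Capn1.
Capn1: gcactgggggacTGTtggctcctggct
Capn2: gccctgggggacTGCtggctgctggct
Capn5: caggtgggcaacTGCtggtttgtggct
Capn6: agattggggaacAAGgcaatgatctct
Capn7: atagtatcagatTGTtcctttgtggca
Capn10: ctgctgggagatTGCtggttcctgtgt
Capn15: ctgctggggaacTGCtggttcctgagt
The marked codon encodes cysteine in 6 of the 7 genes and lysine in Capn6, where it is residue 81, in exon 3. The window of Capn6 lies on the minus strand at chrX:143810887-143810913, and that of Capn5, its nearest relative, in exon 3 at chr7:98151854-98151880, also on the minus strand. Those of Capn7 and Capn10 lie on the plus strand at chr14:31354098-31354124 (exon 8) and chr1:92938008-92938034 (exon 2). The windows of Capn1, Capn2 and Capn15 cross a splice junction, and the first base of their marked codon is at position 6013702 of chromosome 19 in exon 4, position 182492865 of chromosome 1 in exon 3 and position 25963251 of chromosome 17 in exon 3, each on the minus strand.

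Translated from the same transcripts, the 641 residues of calpain 6 matched the 640 residues of calpain 5 at 46.2% of the shorter protein, more than any other pair of calpains except Capn1 and Capn2, at 61.4%. The small subunit, with 268 residues, of which 18.3% are glycine, matched the Capn1 and Capn2 proteins at 44.4% and 43.3%. Calpastatin, which is not a member of the calpain fold family, gave 18.2% to 25.7% in the same alignments, and some calpain pairs also lay in this range, such as Capn1 with Capn7 at 22.4% and Capn6 with Capn15 at 23.7%.

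**Figure D1:**
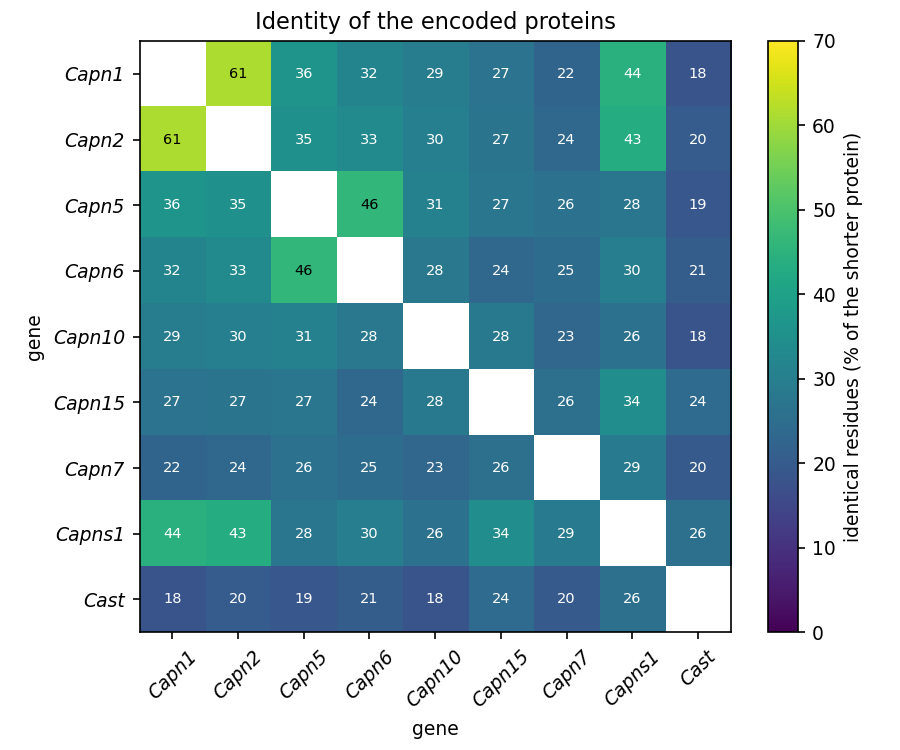
Identical residues as a percent of the shorter protein for each pair of the 9 encoded proteins (rows and columns are genes, colour and number give the percent). Capn1 with Capn2 (61.4%) and Capn5 with Capn6 (46.2%) stand out, and the pairs with Cast lie between 18.2% and 25.7%.

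Library totals ran from 15019038 to 17574340 counts. Nr4a1 had 50660, 60093 and 68555 counts in the NR4A1 overexpression libraries (replicates 1, 2 and 3, the order used throughout), against 428, 510 and 463 in the vector controls, as the labels say, and the reads from the plasmid and from the cells' own gene were not separated. NR4A1 overexpression replicate 2 stood apart from the other 5 libraries, at 46.1 on the first principal component against -14.2 to -2.48, a component that held 48.3% of the variance. In this library the 12 fibroblast markers summed to 2909 CPM (counts scaled to a common library size) against 1254 to 1437 in the others, the 8 smooth muscle markers to 327 against 1.55 to 2.95, and the 9 endothelial markers to 127 against 14.1 to 16.6. Of these lists, 9 of 12, 8 of 8 and 8 of 9 markers were highest in that library. The fibroblast markers Col6a1, Dcn and Lum were not, and Dcn (878 against 905 to 1030 CPM) and the endothelial Tek (5.30 against 6.09 to 7.35 CPM) were lowest there. Outside that library, vector control replicate 1 was highest for the fibroblast markers except Dcn and Lum. Examples were Fbln2 at 19.4 CPM against 0.173 to 2.64, and Col1a2 at 16.4 against 0.566 to 3.04. The 10 lung epithelial markers summed to 767 to 1020.5 CPM over the 6 libraries. Of these, Cldn4 was at 0 in 5 libraries and Epcam reached at most 1.27 CPM. Nkx2-1, the lung lineage factor, had 64.0, 59.8 and 74.6 CPM with NR4A1 overexpression against 80.5, 86.2 and 80.8. Cdh1, Krt8 and Sftpb were likewise lower in every NR4A1 overexpression library than in every vector control. The other markers of this list overlapped between the groups, and a lack of overlap was seen for 12.9% of all genes tested. Neither Nkx2-1 (adjusted p = 0.620) nor Cdh1 (adjusted p = 0.639 by edgeR's quasi-likelihood test) was called. The 7 immune markers summed to 2.14 to 5.42 CPM and the 7 skeletal muscle markers to 0.358 to 2.20 CPM, Myod1, Myog, Ckm and Actn2 being at 0 in all 6 libraries.

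In the vector control, the small subunit and the inhibitor were the most abundant members per length. FPKM, the count scaled by the length of the gene and by the total of the library, was 39.8 ± 7.91 (SD, n = 3) for Capns1 and 38.8 ± 1.70 for Cast, whose ranges overlapped. Capn1 at 21.3 ± 1.25 and Capn2 at 20.3 ± 0.607 FPKM came next and also overlapped. From there each gene lay below the range of the one before it: Capn7 at 11.3 ± 0.823, Capn15 at 6.92 ± 0.302, Capn10 at 4.03 ± 0.104, Capn5 at 2.22 ± 0.254 and Capn6, the lowest, at 1.65 ± 0.272. With NR4A1 overexpression, Capn6 stood sixth of the 9 at 8.24 ± 0.718 FPKM, below Capn7 at 10.9 ± 0.570 and above Capn15 at 7.20 ± 0.0617, with no overlap on either side.

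The order depends on the gene length. The length behind the deposited FPKM of Capn6 was 8100 bases, against 3561 bases for its coding transcript, and those of Capn2 (8319 against 3225), Capn7 (7747 against 3648), Capn10 (6288 against 2902), Capn5 (6318 against 4498) and Capns1 (4392 against 1600) were longer too. For Capn15 (3520 and 3520), Cast (2894 against 2910) and Capn1 (3190 against 3060) they were close. Per kilobase of coding transcript, a scale chosen after the values had been seen, Capn2 ranked second in both groups, behind Capns1, and Capn6 ranked eighth in the vector control at 3.76 ± 0.618 and sixth with NR4A1 overexpression at 18.8 ± 1.63. Comparisons of 1 gene between groups do not depend on this length.

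**Figure D2:**
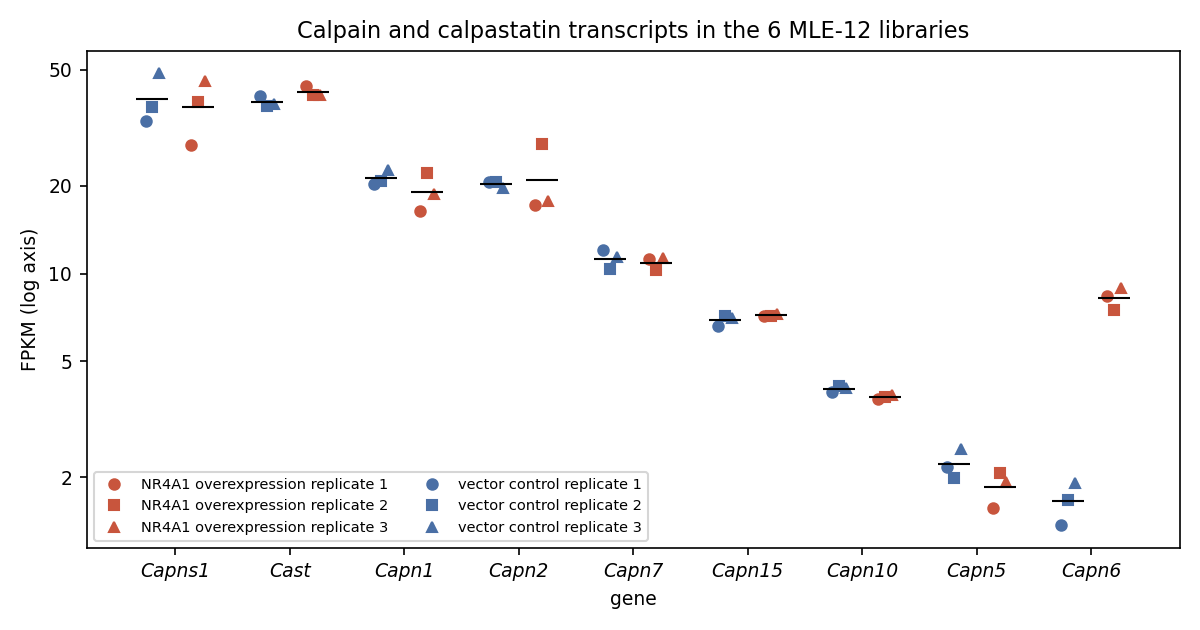
FPKM (log axis) of the 9 genes in each library, with vector control in blue and NR4A1 overexpression in red, symbols for replicates 1 to 3 and a line at each group mean. Capn6 moved from 1.65 to 8.24 FPKM on average, and the 2 groups of the other genes lie at like levels.

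Capn6, the calpain without a catalytic cysteine, was counted with 191, 225 and 272 reads in the vector control and with 1015, 1026 and 1251 in the NR4A1 overexpression libraries. In FPKM these were 1.37, 1.68 and 1.91 against 8.34, 7.48 and 8.91. The lowest NR4A1 overexpression library was thus well above the highest vector control, and the library that stood apart, replicate 2, was the lowest of its group for this gene. The log2 fold change from edgeR's quasi-likelihood fit was 2.34 (SE 0.138, 95% interval 2.01 to 2.67), which is 5.06-fold (4.04 to 6.34), and it was 2.40 without NR4A1 overexpression replicate 2. Capn6 (ENSMUSG00000067276) lies on the minus strand of chromosome X from 143802231 to 143827414. Of its 50-base transcript stretches, 1.07% occur in another annotated gene, Gm47298, which is not a row of the table. In bulk RNA, more cells with Capn6 transcripts and more transcript per cell cannot be told apart.

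Over all 12941 genes tested, 22 (0.170%) changed by a factor of 2 or more with an adjusted p below 0.05, all of them higher with NR4A1 overexpression, and the median log2 fold change was 0.01. Of the 9 members, Capn6 alone was past this threshold. The groups did not overlap for 4 members, Capn6, Cast and Capn15 being higher and Capn10 lower with NR4A1 overexpression, and they did not overlap for 12.9% of all genes tested. Since the family was picked on this contrast, nothing is read from these counts. The other 8 members had log2 fold changes between -0.24 and 0.14, all inside the range from -0.31 to 0.55 that held the middle 90% of all genes, and the 95% intervals of all 8 spanned 0.

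**Figure D3:**
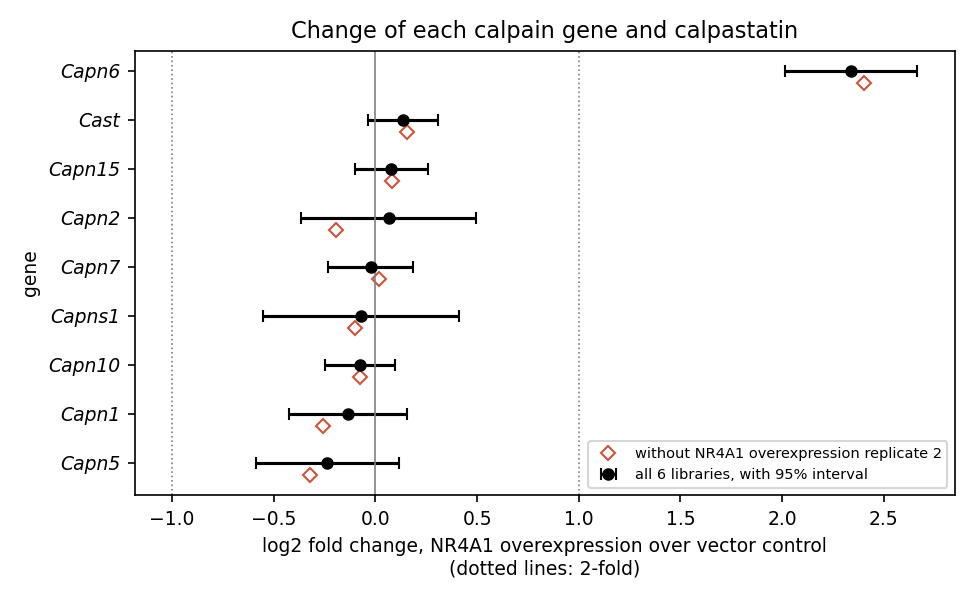
Log2 fold change of each gene, NR4A1 overexpression over vector control, with all 6 libraries (filled, bars are 95% intervals from edgeR) and without NR4A1 overexpression replicate 2 (open). Capn6 lies at 2.34, beyond the dotted line at a 2-fold change, and the other 8 genes lie between -0.24 and 0.14.

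Capn1, the large subunit of μ-calpain (ENSMUSG00000024942, chromosome 19 from 5988546 to 6015825, minus strand), had 16.4, 22.1 and 18.7 FPKM with NR4A1 overexpression and 20.3, 20.8 and 22.7 in the vector control. The groups overlapped, and the log2 fold change was -0.14 (SE 0.123, 95% interval -0.42 to 0.15). Capn2, the large subunit of m-calpain (ENSMUSG00000026509, chromosome 1 from 182467260 to 182517608, minus strand), had 17.2, 27.9 and 17.7 FPKM against 20.7, 20.6 and 19.6. Here NR4A1 overexpression replicate 2 was the highest of all 6 libraries while the other 2 of its group were below every vector control. The log2 fold change of 0.07 (SE 0.183, 95% interval -0.36 to 0.50) accordingly turned to -0.20 without that library, and that of Capn1 went to -0.26. Most of the fibroblast and endothelial markers and all smooth muscle markers were also highest in this library, and their part in the Capn1 and Capn2 values was not tested.

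Capns1, the small subunit that both classical enzymes need (ENSMUSG00000001794, chromosome 7 from 30186942 to 30195164, minus strand), had 27.6, 38.7 and 45.7 FPKM with NR4A1 overexpression and 33.4, 37.4 and 48.6 in the vector control. It varied within each group more than between them, with replicate 3 highest in both, and its log2 fold change was -0.07 (SE 0.204, 95% interval -0.55 to 0.41). Cast, the inhibitor (ENSMUSG00000021585, chromosome 13 from 74694286 to 74807921, minus strand), had 44.0, 41.0 and 41.1 FPKM against 40.8, 37.6 and 38.1. Every NR4A1 overexpression library was above every vector control, by a narrow margin. Its log2 fold change was 0.14 (SE 0.0738, 95% interval -0.04 to 0.31). The annotation lists 13 transcripts of Cast, which the gene counts add up, and 3.47% of its 50-base stretches occur in another gene that is not in the table.

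Capn5, the closest relative of Capn6 and a calpain with a C2 domain (ENSMUSG00000035547, chromosome 7 from 98121559 to 98178274, minus strand), had 149, 222 and 211 counts with NR4A1 overexpression and 236, 209 and 277 in the vector control, which is 1.86 ± 0.259 against 2.22 ± 0.254 FPKM (SD, n = 3). The groups overlapped in FPKM, and the log2 fold change was -0.24 (SE 0.150, 95% interval -0.59 to 0.12). Capn6 was below Capn5 in every vector control, with a ratio of FPKM of 0.631, 0.840 and 0.766, and above it in every NR4A1 overexpression library, at 5.31, 3.60 and 4.62. Per length of the coding transcript Capn6 was above Capn5 in all 6 libraries, the ratios being 1.02, 1.36 and 1.24 in the vector control and 8.60, 5.84 and 7.49 with NR4A1 overexpression, so which of them was lower in the vector control depends on the length used.

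Capn7, a calpain with microtubule interacting and transport domains (ENSMUSG00000021893, chromosome 14 from 31336638 to 31371986, plus strand), had 1303, 1345 and 1515 counts with NR4A1 overexpression and 1601, 1332 and 1552 in the vector control, which is 10.9 ± 0.570 against 11.3 ± 0.823 FPKM (SD, n = 3). Its groups overlapped, and its log2 fold change was -0.02 (SE 0.0892, 95% interval -0.23 to 0.19). Sh3bp5, which overlaps it on the opposite strand, had 708 to 998 counts, and whether the counting used the strand is not given in the sources used here. Capn10, known as a candidate gene for type 2 diabetes (ENSMUSG00000026270, chromosome 1 from 92934376 to 92947941, plus strand), had 3.71, 3.77 and 3.82 FPKM with NR4A1 overexpression and 3.91, 4.12 and 4.06 in the vector control. All 3 were below all vector controls. The log2 fold change was -0.08 (SE 0.0736, 95% interval -0.25 to 0.10). Capn15, the mouse relative of the fly small optic lobes gene (ENSMUSG00000037326, chromosome 17 from 25959556 to 25985680, minus strand), had 7.17, 7.16 and 7.27 FPKM against 6.58, 7.15 and 7.05. The lowest NR4A1 overexpression library and the highest vector control lay next to each other, and the log2 fold change was 0.08 (SE 0.0761, 95% interval -0.10 to 0.26).

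The FPKM of the 7 calpain genes summed to 65.6, 80.8 and 69.6 with NR4A1 overexpression and to 67.0, 66.8 and 69.2 in the vector control. The sums overlapped, with replicate 2 highest. Capn6 made up 12.7%, 9.26% and 12.8% of that sum with NR4A1 overexpression and 2.04%, 2.51% and 2.76% in the vector control. Per length of the coding transcript the shares were 15.6%, 11.2% and 15.9% against 2.57%, 3.19% and 3.56%. Capn1 made up 24.9%, 27.4% and 26.9% against 30.3%, 31.2% and 32.8%, or 14.0%, 15.2% and 15.3% against 17.4%, 18.2% and 19.4% per length of the coding transcript, and each share depends on the other members of the sum. Without Capn6, the sums were 57.2, 73.3 and 60.7 FPKM against 65.6, 65.1 and 67.3. Inhibitor transcript per classical calpain transcript, the ratio of Cast to Capn1 plus Capn2, was 1.31, 0.820 and 1.13 with NR4A1 overexpression and 0.995, 0.907 and 0.901 in the vector control, and NR4A1 overexpression replicate 2 was the lowest of all 6. Per length of the coding transcript the ratio was 0.711, 0.430 and 0.627 against 0.544, 0.499 and 0.510, so that whether inhibitor or classical calpain transcripts were more abundant depends on the length used, while the groups overlapped on both scales.

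**Figure D4:**
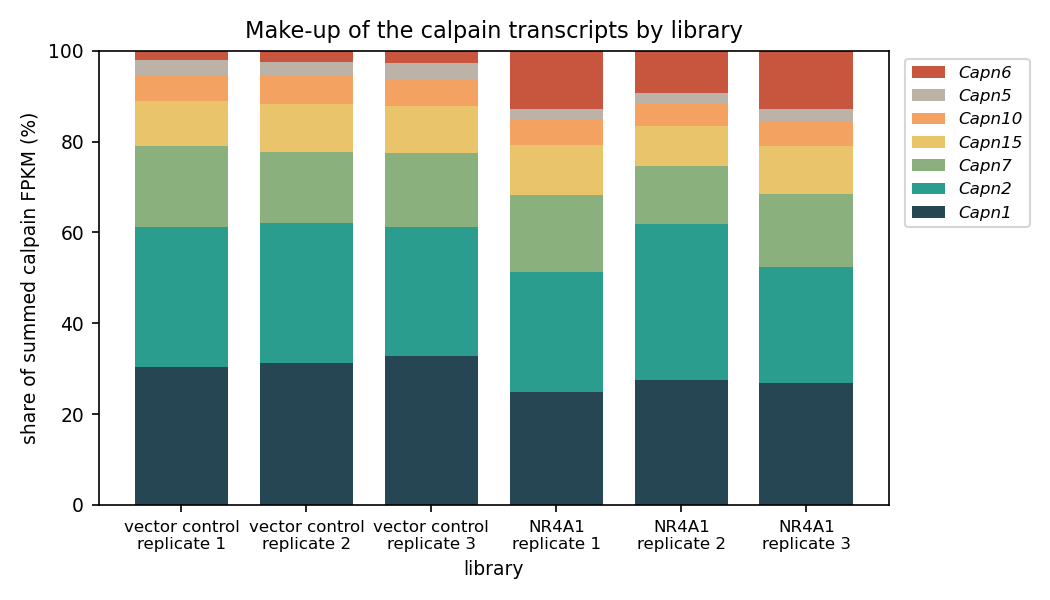
Share of each calpain gene in the summed FPKM of the 7 calpain genes, in percent, 1 bar per library. The share of Capn6 (top) is 9.26% to 12.8% in the NR4A1 overexpression libraries and 2.04% to 2.76% in the vector controls.

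The remaining calpain genes were near the limit of detection. Of 8 further genes listed, 7 are rows of the table and Capn14 was not analysed here. Capn8, Capn12 and Capn13 had 0 counts in all 6 libraries, which allows up to 3 counts per library, and Capns2, a second small subunit, reached 2 counts. Capn3, the muscle calpain, had 1, 3 and 11 counts with NR4A1 overexpression and 2, 1 and 2 in the vector control, and Capn11 had at most 7. Capn9, a calpain of the digestive tract, passed the filter on low counts with 24, 18 and 29 counts against 23, 38 and 31, which overlapped, and it missed the threshold (log2 fold change -0.29, SE 0.309, adjusted p = 0.923 by edgeR's quasi-likelihood test). These limits cover counting error only.

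Transcripts of known calpain substrates lay close to the vector control. Calpains cut proteins, so transcript levels do not measure calpain activity on these substrates. Of 20 listed genes, all tested, 0 passed the threshold by edgeR, DESeq2 or limma-voom, and 0 had an unadjusted p under 0.05 by any of these. The median log2 fold change was 0.05, beside 0.01 over all genes tested, and the values ran from -0.17 for Cdk5r1, the activator of a neuronal kinase, to 0.24 for Actn1, an actin cross-linker. The most abundant were Itgb1, the integrin β1 chain, at 276 FPKM over all libraries, Ezr, a membrane to actin linker, at 126.6, Vcl, which joins integrins to actin, at 102.9, and Vim, the mesenchymal intermediate filament, at 94.7. Vim had 9340, 17214 and 11980 counts against 11696, 12136 and 12213, so that NR4A1 overexpression replicate 2 was again the highest library. The same library was highest for Actn1, with 2395, 4610 and 2865 counts against 2967, 2697 and 3140. The groups did not overlap for 2 of the 20, beside 12.9% of all genes tested. These were Itgb1 (log2 fold change 0.13, adjusted p = 0.839) and Ptk2, the focal adhesion kinase (0.16, adjusted p = 0.809 by edgeR's quasi-likelihood test).

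Because calpain 6 is known to bind microtubules and GEF-H1, 20 genes of that system were listed, of which 19 were tested, Map7 being too low. Their transcript levels do not measure that binding. Here too, 0 passed the threshold by edgeR, DESeq2 or limma-voom, and 0 had an unadjusted p under 0.05 in these fits, whereas 3 (Tuba1a, Tubb2a and Tubb3, all lower with NR4A1 overexpression, adjusted p from 0.301 to 0.606) had one by edgeR without NR4A1 overexpression replicate 2. The median log2 fold change was -0.05. Arhgef2, which encodes GEF-H1, had a log2 fold change of -0.05 (SE 0.0732, adjusted p = 0.953 by edgeR's quasi-likelihood test). The tubulin genes Tuba1b (398.5 FPKM over all libraries), Tuba1c (342), Tubb5 (314) and Tubb4b (125.9) were the most abundant, with log2 fold changes between -0.14 and -0.10, and near-identical tubulin copies may share reads. The extremes were Rac1 at -0.49 (adjusted p = 0.921) and Map1b at 1.63 (adjusted p = 0.803 by edgeR's quasi-likelihood test). Rac1 had 4641, 2208 and 2054 counts against 5753, 2319 and 5625, a wide spread within both groups. Map1b had 91, 653 and 90 counts against 119, 62 and 99, NR4A1 overexpression replicate 2 standing alone. By edgeR, an unadjusted p under 0.05 was also seen for Rac1 and Map1b without NR4A1 overexpression replicate 1. The same held for Map1b without replicate 3 and for Tubb3 with the replicate number as a block (adjusted p from 0.531 to 0.794 for these).

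On chromosome X, 11 genes have their lowest coordinate within 1 Mb of that of Capn6, and 3 of them had enough counts to be tested. For Capn6, on the minus strand, this coordinate is the end of the transcript and not its start. By edgeR, DESeq2 and limma-voom, 0 passed the threshold and 0 had an unadjusted p under 0.05. Alg13, a glycosylation enzyme, had a log2 fold change of -0.01, Ammecr1 of 0.13 and Pak3, a kinase downstream of Rac, of 0.02. Nearest by this measure was Dcx, at 53.6 kb between lowest coordinates, which encodes the neuronal microtubule protein doublecortin and had 0 counts in every library. Chrdl1 had 10, 2 and 3 counts against 13, 3 and 3. Rgag1, whose lowest coordinate is 702.6 kb to the left of that of Capn6, had 14, 12 and 10 counts with NR4A1 overexpression and 0, 3 and 1 in the vector control. Its groups did not overlap, and it was removed by the filter on low counts. Without that filter 7 of the 11 genes were tested and Rgag1 alone had an unadjusted p under 0.05 (adjusted p = 0.675 by edgeR's quasi-likelihood test). It had one too, with an adjusted p from 0.333 to 0.977, without NR4A1 overexpression replicate 3 or any 1 vector control.

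NR4A1 is known to bind the NBRE, AAAGGTCA, as a monomer. RefSeq promoters (GRCm38.p6, 250 bases before to 50 after each start) were found for 8 of the 9 members, 14 promoters in all, and none for Capn5. Searched on both strands, the NBRE was in 0 of these 14 and in 495 of 32851 promoters of all genes (1.51%). The half-site AGGTCA, which the NBRE contains, was in 16.3% of all promoters and in 1 member promoter, 1 of several of Cast. It is shown because it is the single match among the members (gene strand, 5′ to 3′, the match to the half-site in capitals, reading TGACCT on this strand).
Cast: agaagagttcTGACCTccgtgtgaag
This stretch lies at chr13:74808112-74808137 on the minus strand, and the match begins 167 bases before the start. The promoter of Capn6 held neither run of letters, which says nothing of binding elsewhere. The search took exact matches only. The site in the promoter of the gene Ereg that the paper proposes NR4A1 binds directly holds neither run. The lack of both runs therefore does not show that a promoter has no site for NR4A1, and inexact matches were not tested.

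The genes whose levels followed Capn6 most closely over the 6 libraries, by Pearson's r of log2(CPM + 1), were Nrn1 (0.995), Haao (0.993), Lman1l (0.993), Nr4a1 (0.993) and Mfsd6 (0.992). The 6 points form 2 groups, so that r measures mostly how evenly a gene separated them. Nrn1, which encodes the neurite outgrowth factor neuritin, had 59.5, 59.9 and 57.4 CPM with NR4A1 overexpression against 29.1, 31.1 and 32.8. Mfsd6, a membrane transporter of the major facilitator family, had 48.5, 45.2 and 49.9 against 31.2, 31.0 and 33.9 CPM. Haao, an enzyme of tryptophan breakdown, and Lman1l, a lectin gene, had 0 counts in all vector controls and low levels with NR4A1 overexpression, 0.715 to 0.809 CPM and 1.07 to 1.16 CPM. Of these genes Nr4a1 alone passed the threshold. The adjusted p was 0.0742 for Haao, 0.0518 for Lman1l and 0.0641 for Mfsd6 by edgeR's quasi-likelihood test, and Nrn1 changed less than 2-fold (log2 fold change 0.93). The genes were picked on the same libraries, so these values are a description.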

How the data were processed

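The authors deposited a table with read counts and FPKM per gene for 6 strand-specific libraries. The submitters' processing notes name HISAT2 2.0.4 and GRCm38.p4, and the counting program is not given in the sources used here. The deposited FPKM were the counts scaled by each library's total and 1 length per gene (largest deviation 0.00129% over 10738 genes). Groups came from the treatment labels. Counts were normalized with TMM factors, filtered with filterByExpr and compared by edgeR 4.0.16's quasi-likelihood test in R 4.3.3 over 12941 genes. A gene was called when its Benjamini-Hochberg adjusted p was below 0.05 and it changed by a factor of 2 or more. At totals of 15019038 to 17574340, 3 counts were taken as the smallest amount a library shows, for counting error only. Pairs of libraries within a group differed by more than counting error (chi-square per degree of freedom 9.36 to 41.8). All 6 were used as replicates, although such a spread does not show that they came from separate cultures. Tested on simulated counts for this comparison (12811 genes, 200 changed 3-fold), edgeR recovered 164 with 7 false calls, DESeq2 171 with 13 and limma-voom 164 with 5.

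Alternatives were DESeq2 1.42.0, limma 3.58.1 (voom, or log2(FPKM + 1) and log2(FPKM + 0.1), keeping a group mean of 1 FPKM or more), other size factors, no filter, an unadjusted p, no fold threshold, the replicate number as a block and each library left out. The coding transcript length was an alternative chosen after seeing the data. The members and lists were chosen with earlier results of these data known. Named were all members, Nr4a1, the 4 highest genes of each list by FPKM, genes of 10 or more counts in the short lists, and the 5 genes most like Capn6. List extremes, genes at 0, Itgb1, Ptk2, Arhgef2, Tuba1a, Tubb2a, Tubb3, Map7 and Sh3bp5 were named after their values were seen. Sequences came from GENCODE M21 and RefSeq. Translations were aligned globally (BLOSUM62) with Python 3.11.15.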

Additional observations from a re-analysis of the deposited data

How the results depend on the processing

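The number of genes past the threshold, 22 by edgeR's quasi-likelihood test, was 73 by DESeq2, 161 with an unadjusted p, 7 by limma on log2(FPKM + 1) and 5 with the replicate block, and the cause was not tested. The 5 were all among the 22. Same-numbered libraries deviated from their group means with correlations of 0.020, 0.046 and 0.178 and 1 of 6 libraries was closest to its own number, so the numbers were not taken to pair the samples. Leaving out 1 library gave 3 to 28 genes: 4 without NR4A1 overexpression replicate 1, 3 without replicate 3, 6 without each vector control in turn and 28 without NR4A1 overexpression replicate 2, of which 18 were among the 22. The log2 fold change of Capn6, a description since the family was chosen by it, ran from 1.80 (limma on log2(FPKM + 1), which understates low genes) to 2.46 (without vector control replicate 3). Of the other members, the sign changed in at least 1 of 14 alternatives for Capn2, Capn7 and Capns1, whose values stayed between -0.25 and 0.18. The 4 gene lists had 0 genes past the threshold in every alternative that could be run, limma on log2(FPKM + 1) leaving no further calpain gene to test.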
